A study of Mus musculus with 5 samples.

Results

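The receptors described here are G protein-coupled receptors outside smell and taste, taken from an array comparison of newborn mouse sciatic nerve with and without the transcription factor Ebf2. They were taken by gene symbol, under a rule chosen with earlier results of these data known. It covers numbered Gpr genes, adhesion receptors (Adgr, without Adgre1), and the receptors for somatostatin, catecholamines, serotonin, lysophosphatidic acid, sphingosine 1-phosphate, nucleotides, prostaglandin E, adenosine, acetylcholine, dopamine, endothelin, neuropeptide Y and glutamate. The rule found 73 genes, each with 1 probe set, among the 9407 genes of the table. RefSeq lists 178 genes under the same symbols (assembly GRCm38.p6), and the other 105, among them Ednrb, Lpar1, P2ry12 and Adora2b, were not analysed here. A symbol is not always a receptor of this class: Htr3a and Htr3b encode serotonin-gated ion channels, and Gpr89, Gpr107 and Gpr137 encode proteins of the Golgi or lysosome membrane. The study pooled nerves by genotype: pools 1, 9 and 11 were Ebf2+/+ (WT, 3 pools) and pools 2 and 4 were Ebf2-/- (KO, 2 pools). Pups were 2 days old, all on a C57Bl6N background and born to heterozygous parents, and each pool combined 12 nerves. The labels do not say how many litters a pool held or which part of Ebf2 the allele lacks, and the genotype is that of the whole animal.

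G protein-coupled receptors are membrane proteins that turn a signal outside the cell into activation of a G protein inside it. Gs raises and Gi lowers cyclic AMP, and Gq releases calcium through phospholipase C. In Schwann cells cyclic AMP is a known trigger of myelination, and the adhesion receptor Adgrg6 (formerly Gpr126) raises it. Receptors for lysophospholipids act on Schwann cell shape, on vessels and on immune cells, so a dissected nerve holds receptors of many cell types.

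All levels below are log2 values, and a difference is KO minus WT on the log2 scale with its standard error (SE) and limma's adjusted p, over 3 WT and 2 KO pools. Ebf2 read 11.14 to 11.55 in the WT pools and 8.74 and 9.25 in the KO pools, so each array stood on the side of its label. Of 11 markers of the Schwann lineage 6 were measured, with list means of 10.88 to 11.32 in WT and 10.80 and 11.05 in KO. These means hide members that went different ways, with 4 lower and 2 higher in KO. Cdh19 (-0.56, SE 0.19) and Erbb3 (-0.47, SE 0.19) lay below the WT range in both KO pools (33.3% of the list; 13.3% over all probe sets). L1cam (0.33, SE 0.18) and Gap43 (0.19, SE 0.19) were higher. None passed at adjusted p below 0.05. The WT pools were not alike. The 20 skeletal muscle markers averaged 9.71 in WT pool 1, below the 11.25 of WT pool 9 and the 11.06 of WT pool 11. The 15 measured keratinocyte markers averaged 7.32, 9.07 and 8.49 in the same order. The KO pools lay between for muscle (10.21 and 10.40) and near WT pool 1 for keratinocytes (7.38 and 7.65). WT pool 9 stood apart in neuron markers, with a list mean of 9.43 against 8.16 to 8.37 on the other arrays, and was the farthest array for 9 of the 9 measured. Each value mixes all cells of the nerve, so fewer cells of a type and less RNA per cell cannot be told apart.

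Of the 73 receptors, 1 rose (S1pr1), 1 fell (Sstr4) and 71 did not pass at adjusted p below 0.05. The 2 calls were 2.74% of the receptors. The background was 0.676% of all 10361 probe sets called, 0.347% higher and 0.328% lower. Before adjustment 12 receptors had p below 0.05 (16.4%; 14.3% of all probe sets), 10 of them higher in KO (7.14% of all probe sets) and 2 lower (7.17%). Both KO pools lay above all WT pools for 15 receptors (20.5%; 17.5% over the table) and below them for 6 (8.22%; 13.3% over the table). The KO mean was above the WT mean for 42 receptors (57.5%; 49.8% over the table). The median difference was 0.04 for the receptors and -0.0017 over all probe sets. By the median and the total share at unadjusted p below 0.05, the receptors lay close to the table as a whole. By direction they leaned to higher in KO, with 10 higher and 2 lower at that threshold against 740 and 743 over the table. The set was not tested, and the results below are about single genes. The standard deviation among WT pools ran from 0.0 (Gpr182) to 0.80 (Adgrl2). The fit draws the variances of all probe sets together (17.4 prior against 3 residual degrees of freedom), which makes the SEs more alike. Their median was 0.17, and the median half-width of the 95% interval was 0.36. For 67 receptors this interval lay within 1 log2 unit of 0 on either side. By mean level over the 5 pools, 26 receptors lay below 7.66, the 25th percentile of all probe sets. Npy2r, Npy6r, Gpr158, Gpr34, Gpr174 and P2ry10 were among them. Whether such low signals reflect expression of the receptor was not tested.

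**Figure D1:**
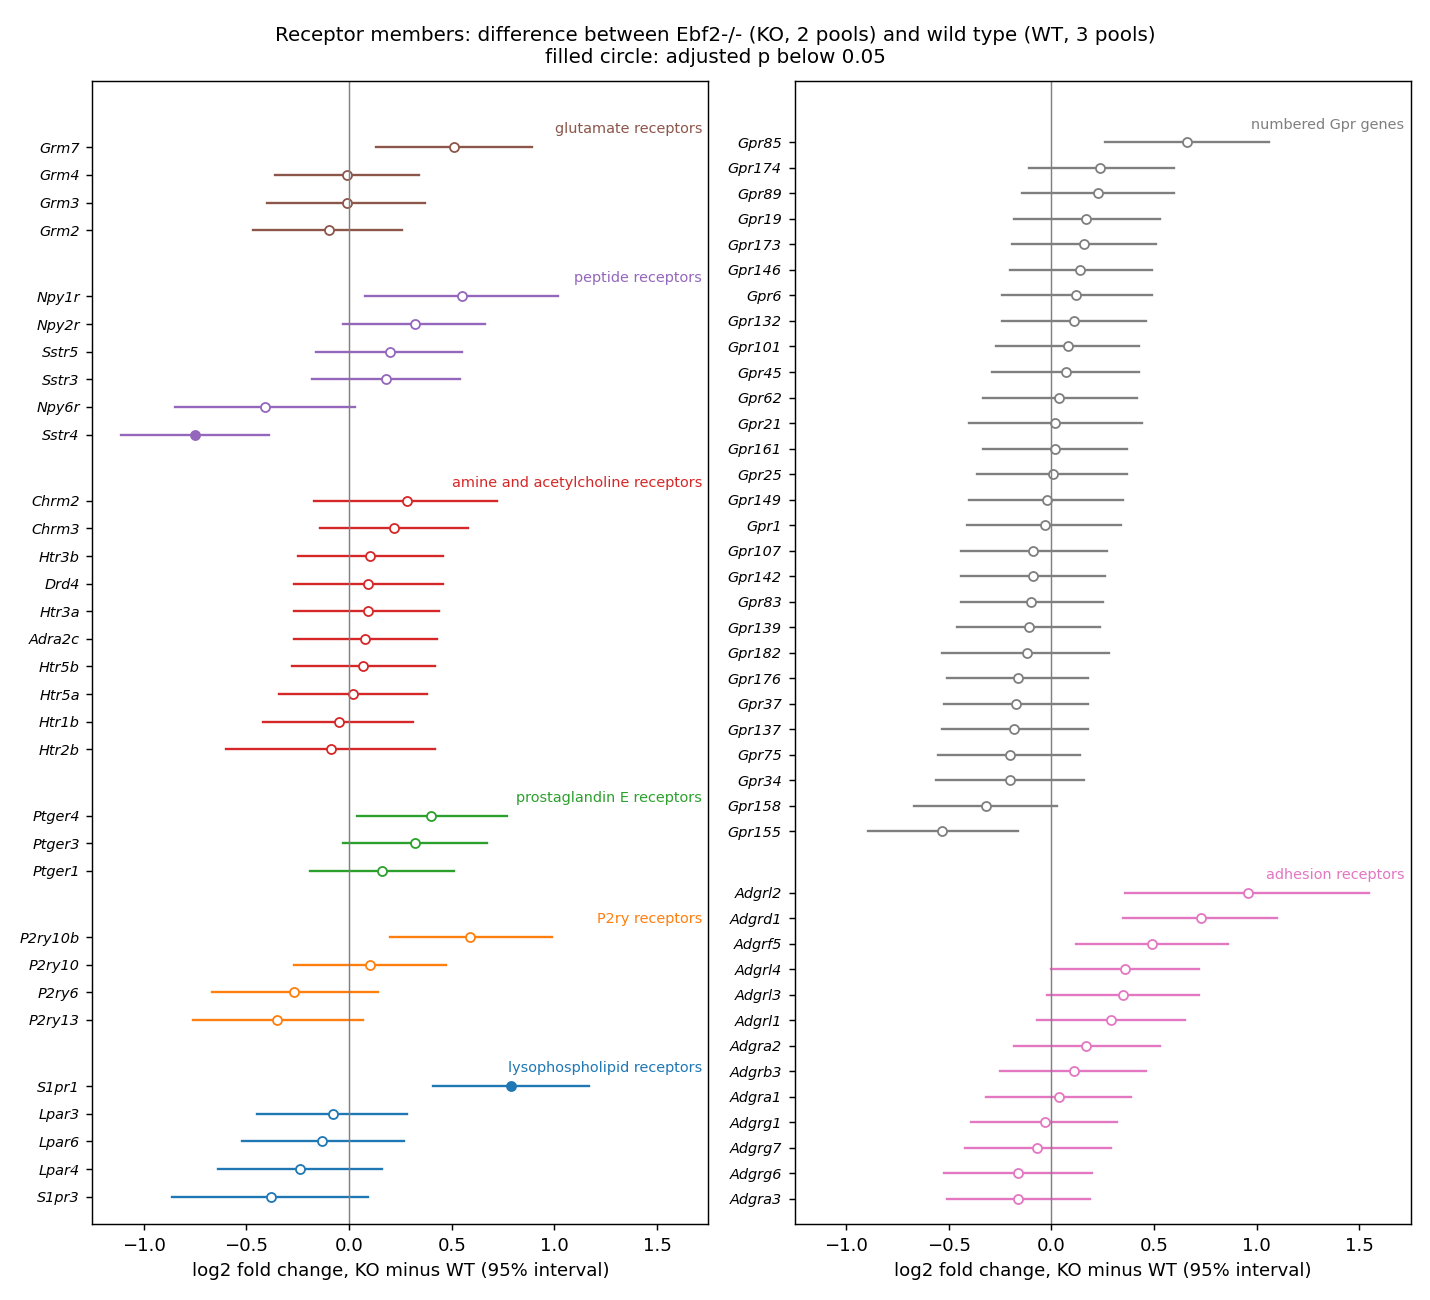
Difference between KO and WT (log2, horizontal axis) for each of the 73 receptors, grouped by family; circles are the fitted differences, bars their 95% intervals from limma with 3 WT and 2 KO pools, and filled circles mark adjusted p below 0.05. S1pr1 (0.79) and Sstr4 (-0.75) are the filled circles, and Adgrl2 has the largest difference and the widest interval (0.36 to 1.55).

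Among the lysophospholipid receptors, S1pr1 rose and the other 4 did not pass. S1pr1 is the Gi-coupled sphingosine 1-phosphate receptor of endothelium and lymphocytes. Its WT readings, here and below in the order of pools 1, 9 and 11, were 9.60, 9.08 and 9.28, and its KO readings, in the order of pools 2 and 4, were 10 and 10.22. Both KO pools were above every WT pool. The difference was 0.79 (SE 0.18), a 1.73-fold higher level, with adjusted p = 0.0498. The call sat at the threshold and was lost without any 1 of the 5 pools (adjusted p from 0.0914 to 0.831). Against WT pool 1 alone the difference was 0.51 (adjusted p = 0.857). Markers of endothelium were also higher in KO, 15 of 16 of them, with list means of 10.28, 9.93 and 9.90 in the WT pools and 10.49 and 10.22 in KO pools 2 and 4. S1pr1 was highest in KO pool 4 and the endothelial list in KO pool 2; the part of endothelial RNA in the S1pr1 difference was not tested.

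S1pr3, a sphingosine 1-phosphate receptor that couples to Gi and Gq, behaved differently between the KO pools. It read 12.87, 12.70 and 12.72 in WT, 12.93 in KO pool 2 and 11.83 in KO pool 4. KO pool 2 was the highest array and KO pool 4 the lowest, so the difference of -0.38 (SE 0.23, adjusted p = 0.455) rested on KO pool 4 alone. Lpar4 and Lpar6, lysophosphatidic acid receptors that act in vessel formation, were likewise lowest in KO pool 4. Lpar4 read 12.03 to 12.08 in WT, 12.15 in KO pool 2 and 11.46 in KO pool 4 (difference -0.24, SE 0.19). Lpar6 read 9.96, 9.65 and 9.71 in WT, 9.93 in KO pool 2 and 9.36 in KO pool 4 (difference -0.13, SE 0.19). Lpar3, another lysophosphatidic acid receptor, was at -0.08 (SE 0.18), with WT readings of 7.44 to 7.46 inside the span of the KO pools (7.14 and 7.59). The family median was -0.13, and it turned to 0.16 without KO pool 4.

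The receptors for lysophosphatidylserine, a lipid signal of immune cells, are Gpr34, P2ry10, P2ry10b and Gpr174. P2ry10b read 8.22, 7.65 and 7.70 in WT and 8.59 and 8.32 in KO, with both KO pools above the WT range. Its difference was 0.59 (SE 0.19, adjusted p = 0.147) and became 0.23 with WT pool 1 as the only control. P2ry10, its close copy, was at 0.10 (SE 0.18), and probes of such copies may share signal. Gpr174 was at 0.24 (SE 0.17), with both KO pools (6.18 and 6.35) above the WT pools (5.86 to 6.10), and Gpr34 at -0.20 (SE 0.17). None of these 4 receptors passed.

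P2ry13 and P2ry6, which sense ADP and UDP on macrophages and microglia, were low in KO pool 4 only. P2ry13 read 8.01 to 8.19 in WT, 8.12 in KO pool 2 and 7.36 in KO pool 4 (difference -0.35, SE 0.20, adjusted p = 0.435). P2ry6 read 9.04 to 9.18 in WT, 9.18 in KO pool 2 and 8.47 in KO pool 4 (difference -0.27, SE 0.19, adjusted p = 0.549). Gpr34, also a gene of microglia and macrophages, was at 6.04 to 6.12 in WT, at 6.04 in KO pool 2 and at 5.69 in KO pool 4. Of 13 macrophage markers 4 were measured, with list means of 9.58 to 9.74 in WT, 9.76 in KO pool 2 and 9.54 in KO pool 4. Within that list Cx3cr1 was lowest in KO pool 4 (8.59, against 9.22 to 9.32 elsewhere), while Adgre1 was highest there (9.18). The part of macrophage RNA in these differences was not tested.

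All 3 measured prostaglandin E receptors lay above the WT range in both KO pools (17.5% over the table), and 0 of them passed (0.676% over the table). Ptger4, which couples to Gs, read 8.62, 8.32 and 8.37 in WT and 8.72 and 8.97 in KO (difference 0.40, SE 0.17, unadjusted p = 0.0303, adjusted p = 0.288). Ptger3, which couples to Gi, was at 0.32 (SE 0.17, adjusted p = 0.398), and Ptger1, which couples to Gq, at 0.16 (SE 0.17, adjusted p = 0.664). In all 3 the lowest arrays were WT pools 9 and 11 (23.2% over the table). The family median of 0.32 was 0.19 against WT pool 1 alone.

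Sstr4 was the receptor that fell. It encodes a Gi-coupled receptor for somatostatin and read 9.39, 9.56 and 9.24 in WT and 8.74 and 8.55 in KO. Every KO reading was below every WT reading. The difference was -0.75 (SE 0.17), a 1.69-fold lower level, with adjusted p = 0.0445. Like that of S1pr1, the call was lost without any 1 pool (adjusted p from 0.0812 to 0.831), but the difference stayed between -0.66 and -0.85 and was -0.75 against WT pool 1 alone. Of 11 markers of myelinating Schwann cells 8 were measured, all 8 were below the WT range in both KO pools (13.3% over the table) and 6 fell (0.328% over the table), with list means of 10.74, 11.25 and 10.92 in WT and 10.19 and 9.69 in KO. Sstr4 and that list shared their highest array (WT pool 9) and their lowest (KO pool 4); WT pool 9 was also the array with the highest neuron markers. The part of myelinating or neuronal RNA in the Sstr4 difference was not tested. Sstr3 (0.18, SE 0.17) and Sstr5 (0.20, SE 0.17), the other somatostatin receptors measured, were higher in KO and did not pass.

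Receptors for neuropeptide Y, a cotransmitter of sympathetic axons, went different ways. Npy1r read 8.02, 7.40 and 6.95 in WT and 8.07 and 7.95 in KO, so WT pool 1 lay with the KO pools. Its difference of 0.55 (SE 0.23, unadjusted p = 0.0232, adjusted p = 0.260) was -0.01 against WT pool 1 alone. The 11 measured markers of pericytes and smooth muscle had list means of 10.86, 10.39 and 10.21 in WT and 10.86 and 10.88 in KO. WT pools 9 and 11 were lowest in 8 of them (72.7%, against 23.2% over the table). Myh11, the myosin of smooth muscle, had the largest difference of the list (0.99). It read 10.32, 9.29 and 8.47 in WT and 10.17 and 10.52 in KO. Lower in KO were 3 of the 11, Des (-0.32), Cspg4 (-0.29) and Mcam (-0.14), and Des was highest in WT pools 9 and 11. The part of these cells in the Npy1r difference was not tested. Npy2r was low in signal (mean 6.15 over all pools). It had little spread within either group, with 6.0, 6.08 and 6.0 in WT and 6.36 and 6.33 in KO (difference 0.32, SE 0.16, adjusted p = 0.390). Npy6r was at -0.41 (SE 0.21, adjusted p = 0.383), with overlapping groups (6.36 to 7.08 in WT, 6.63 and 6.05 in KO).

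In the 10 genes listed as amine and acetylcholine receptors, the channel genes Htr3a and Htr3b included, the WT and KO readings overlapped. None passed at adjusted p below 0.05 (0.676% over the table) or had unadjusted p below 0.05 (14.3% over the table). No gene had both KO pools above the WT range (17.5% over the table) or below it (13.3%). Mean levels over all pools were low to middling, from 6.45 (Htr3a) to 8.09 (Htr1b). Their differences ran from -0.09 (Htr2b) to 0.28 (Chrm2) with a median of 0.08. Chrm2, a Gi-coupled muscarinic receptor, varied more within WT (7.12 to 8.02) than between groups. Htr2b, a Gq-coupled serotonin receptor, read 7.38 in WT pool 1 and 6.29 to 6.70 on the other 4 arrays, which made WT pool 1 the array that stood apart.

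Among 4 glutamate receptors, Grm7 stood higher in KO without passing. This Gi-coupled receptor, known from axon terminals, read 7.79, 7.90 and 7.5 in WT and 8.05 and 8.44 in KO (difference 0.51, SE 0.18, unadjusted p = 0.0110, adjusted p = 0.195), and both KO pools were above the WT range. It was 0.45 against WT pool 1 alone. Grm2, Grm3 and Grm4 lay between -0.10 and -0.01, and Grm3 was at 0.04 under median centring or quantile normalisation.

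Promoter windows were compared for the motif of early B cell factors, since Ebf2 belongs to that family. The 250 bases before the start site were read from RefSeq windows (GRCm38.p6) for 58 of the 73 receptors, 77 windows in all. The called receptor S1pr1 was among those without a window and was not searched. The core CCCNNGGG, a palindrome searched on both strands, was in 11 of these windows (14.3%) and in 11.8% of all 32851 windows. A longer form, the same core with T before it and A after it, was in 2 (2.60%) and in 0.779% of all windows. The longer form was found before Grm7 and Lpar3, and the window of the called receptor Sstr4 is shown beside them, 5′ to 3′ on the plus strand with matches to the longer form in capitals. A match is a description of the letters and does not show binding.
Sstr4, chr2:148395127-148395376: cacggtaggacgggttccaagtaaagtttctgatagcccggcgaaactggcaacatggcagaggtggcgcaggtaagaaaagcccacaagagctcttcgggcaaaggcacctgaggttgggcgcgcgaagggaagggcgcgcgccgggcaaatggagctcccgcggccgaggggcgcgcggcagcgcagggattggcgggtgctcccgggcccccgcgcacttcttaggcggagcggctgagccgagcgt
Grm7, chr6:110645262-110645511: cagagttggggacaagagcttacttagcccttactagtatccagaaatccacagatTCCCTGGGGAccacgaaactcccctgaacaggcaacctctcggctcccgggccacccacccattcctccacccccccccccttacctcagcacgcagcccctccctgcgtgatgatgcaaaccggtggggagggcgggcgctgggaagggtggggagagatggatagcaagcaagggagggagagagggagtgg
Lpar3, chr3:146220711-146220960: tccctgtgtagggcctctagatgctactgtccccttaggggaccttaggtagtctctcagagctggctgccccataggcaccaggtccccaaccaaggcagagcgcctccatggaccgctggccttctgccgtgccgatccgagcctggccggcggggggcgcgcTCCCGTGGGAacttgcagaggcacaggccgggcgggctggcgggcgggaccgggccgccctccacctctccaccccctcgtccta
The match began at position -194 from the start of Grm7 and at position -85 from that of Lpar3. A further Grm7 window, of a start site downstream, held no match. The Sstr4 window held neither form.

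Adhesion receptors have long outer domains that bind matrix or neighbouring cells and are cut at an internal site. Of 13 measured, 9 were higher in KO (69.2%; 49.8% over the table) and 5 lay above the WT range in both KO pools (38.5%; 17.5% over the table). None passed, where 0.676% of all probe sets did. Adgrg6, which Schwann cells need to begin myelination, differed little. It read 12.09, 11.98 and 11.98 in WT, 12.06 in KO pool 2 and 11.66 in KO pool 4 (difference -0.16, SE 0.17, 95% interval -0.52 to 0.20, adjusted p = 0.676). KO pool 2 was inside the WT range and KO pool 4 below it. Its relative Adgrg1, also expressed by Schwann cells, was at -0.03 (SE 0.17), or 0.03 after median centring, with KO readings of 11.06 and 10.75 around the WT pools (10.86 to 11.00).

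Latrophilins, the adhesion receptors for teneurins and FLRT proteins, are Adgrl1, Adgrl2 and Adgrl3. Adgrl2 had the largest difference of all 73 receptors, 0.96 (SE 0.28, unadjusted p = 0.00301), and did not pass (adjusted p = 0.116). It read 8.49, 7.23 and 7.0 in WT and 8.39 and 8.67 in KO. WT pool 1 lay between the KO pools, the WT readings spanned 1.49, and the difference from WT pool 1 alone was 0.04. Adgrl3 read 11.07, 10.69 and 10.73 in WT and 11.05 and 11.31 in KO (difference 0.35, SE 0.18, adjusted p = 0.380). Adgrl1 read 10.79, 10.64 and 10.50 in WT and 10.83 and 11.04 in KO (difference 0.29, SE 0.17, adjusted p = 0.452). In all 3 latrophilins WT pools 9 and 11 were the lowest arrays. Of the ligands, Flrt2 (0.32, SE 0.20), Flrt3 (0.29, SE 0.17), Tenm1 (0.24, SE 0.19), Tenm3 (0.13, SE 0.17) and Tenm4 (0.21, SE 0.18) were measured, and none passed.

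Adgrd1, an adhesion receptor that couples to Gs, came closest to passing among the receptors not called. It read 10.07, 9.74 and 9.81 in WT and 10.39 and 10.80 in KO, with both KO pools above the WT range. The difference was 0.73 (SE 0.18, unadjusted p = 0.000665, adjusted p = 0.0659), a 1.65-fold higher level, and 0.53 against WT pool 1 alone. It passed with a variance trend (adjusted p = 0.0403), a robust prior (0.0201), array weights (0.0232) or the upper 50% of probe sets by level (0.0146). It did not pass with median centring (adjusted p = 0.376), quantile normalisation (0.360), no moderation (0.560), probe sets above the 25th percentile of level (0.0604), WT pool 1 as the only control (0.857) or any 1 pool left out (0.128 to 0.831). Adgrb3, which binds C1q-like proteins, was at 0.11 (SE 0.17), and Adgrg7, a gene of the gut, at -0.07 (SE 0.17).

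Adgrf5 and Adgrl4, adhesion receptors of endothelium, were above the WT range in both KO pools. Adgrf5 read 10.97, 10.56 and 10.77 in WT and 11.19 and 11.32 in KO (difference 0.49, SE 0.18, unadjusted p = 0.0111, adjusted p = 0.195). Adgrl4 read 9.69, 9.54 and 9.37 in WT and 9.95 and 9.83 in KO (difference 0.36, SE 0.17, unadjusted p = 0.0487, adjusted p = 0.348). Adgra2, a cofactor of Wnt signals in brain vessels, was at 0.17 (SE 0.17). In these receptors too WT pool 1 was the highest WT array, as it was for the endothelial markers (Pecam1 read 11.11, 10.67 and 10.57 in WT and 11.30 and 11.25 in KO). Against WT pool 1 alone the differences were 0.29 for Adgrf5 and 0.20 for Adgrl4, and the median of the 13 adhesion receptors went from 0.17 to 0.04.

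**Figure D2:**
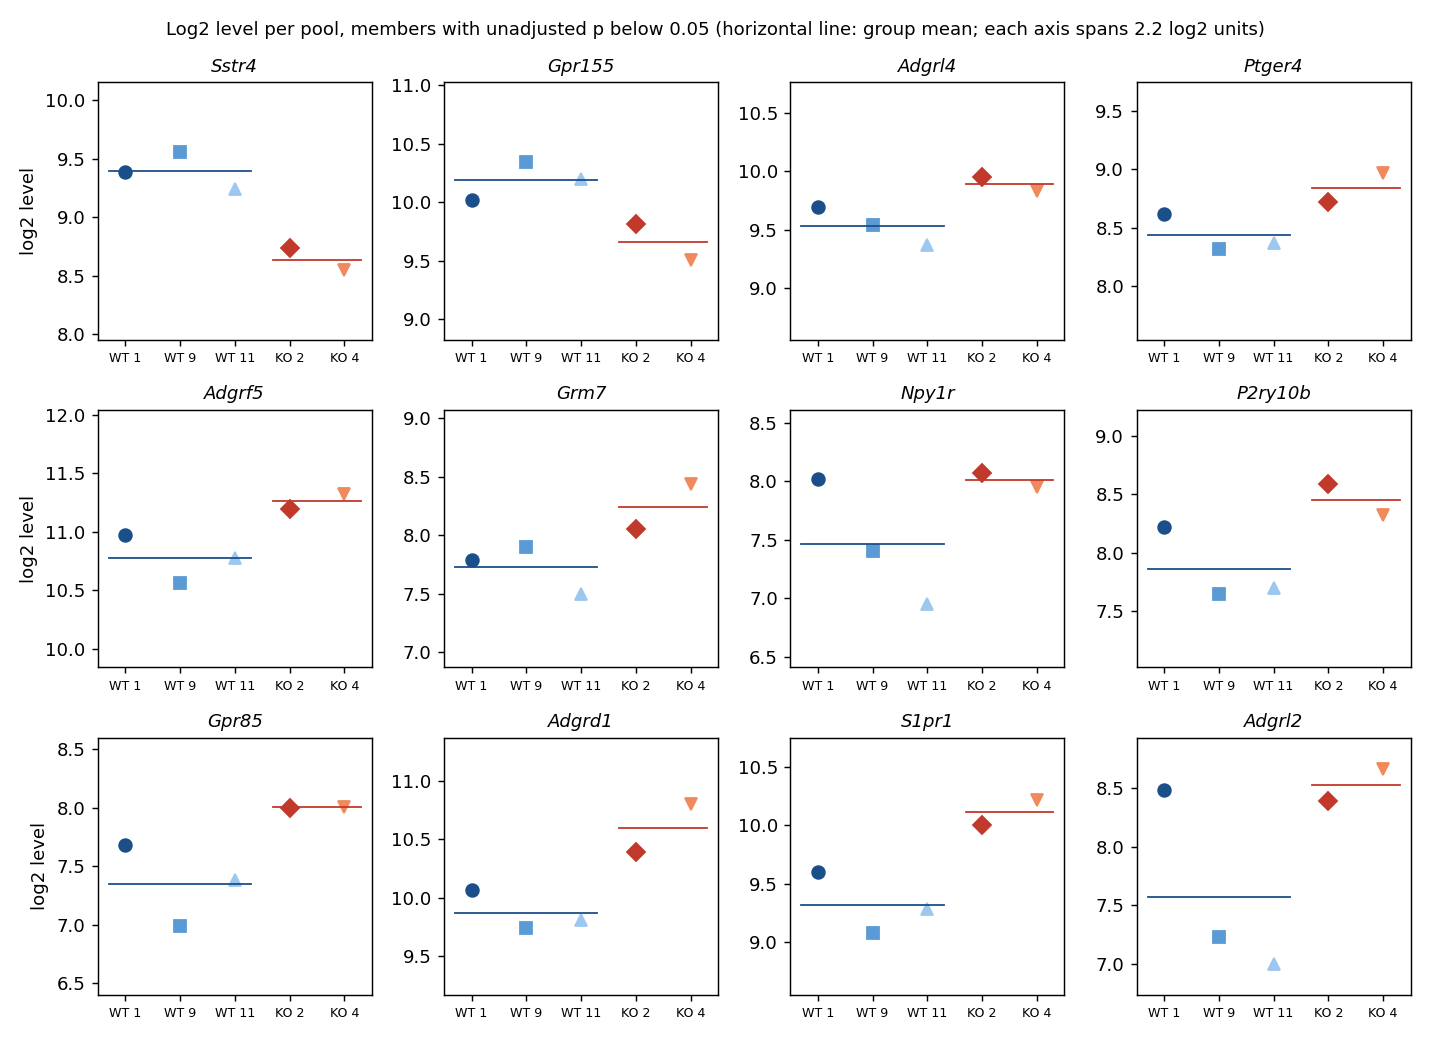
Log2 level (vertical axis) on each of the 5 arrays for the 12 receptors with unadjusted p below 0.05; symbols mark pools, horizontal lines group means, and each axis spans the same range. WT pools 9 and 11 are the lowest arrays in 9 of the 10 receptors that were higher in KO, and WT pool 1 reaches the KO level in Adgrl2 and Npy1r.

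The 28 numbered Gpr genes were balanced, with 14 higher and 14 lower in KO, a median of -0.01 (0.05 after median centring, 0.03 after quantile normalisation) and 0 passing. Gpr155, a lysosomal membrane protein that senses cholesterol, read 10.02, 10.34 and 10.20 in WT and 9.81 and 9.51 in KO. Both KO pools were below the WT range, and the difference was -0.53 (SE 0.18, unadjusted p = 0.00708, adjusted p = 0.162). With WT pool 1 as the only control it was -0.36. Gpr85, a conserved orphan receptor of the brain, read 7.68, 6.99 and 7.38 in WT and 8.0 and 8.01 in KO (difference 0.66, SE 0.19, unadjusted p = 0.00262, adjusted p = 0.109) and 0.32 with WT pool 1 as the only control. The KO pools of Gpr85 were nearly equal while the WT pools spanned 0.69.

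Gpr37, a receptor of myelinating glia, read 9.17, 9.35 and 9.22 in WT and 9.01 and 9.14 in KO, below the WT range by a gap of 0.03 (difference -0.17, SE 0.17, adjusted p = 0.646). Gpr158, a receptor of neurons, read 6.28, 6.51 and 6.28 in WT and 6.01 and 6.06 in KO (difference -0.32, SE 0.17, adjusted p = 0.395). Its highest array was WT pool 9, as for the neuron markers, and their part in it was not tested. The remaining 22 numbered genes other than Gpr34 and Gpr174 lay between -0.20 (Gpr75) and 0.23 (Gpr89). Gpr161, a ciliary brake on Hedgehog signalling, was at 0.02 (SE 0.17).

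The KO pools did not always move together. KO pool 4 was the array farthest from the median of the other 4, and lower, for 15 receptors (20.5%; 26.3% over the table). In 4 of these, Sstr4, Gpr155, Gpr75 and Gpr176, both KO pools lay below the WT range. In others KO pool 2 stayed at or above the WT mean. S1pr3 (-0.94 from the WT mean in KO pool 4, 0.17 in KO pool 2), P2ry13 (-0.73 and 0.03), P2ry6 (-0.62 and 0.09), Lpar4 (-0.58 and 0.11), Gpr182 (-0.50 and 0.25), Lpar6 (-0.41 and 0.16) and Adgrg6 (-0.35 and 0.04) were of the latter kind. Among receptors with larger differences, Sstr4 (-0.85 and -0.66), S1pr1 (0.89 and 0.68), Adgrd1 (0.93 and 0.52) and Gpr85 (0.66 and 0.65) departed from the WT mean in the same direction in both.

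**Figure D3:**
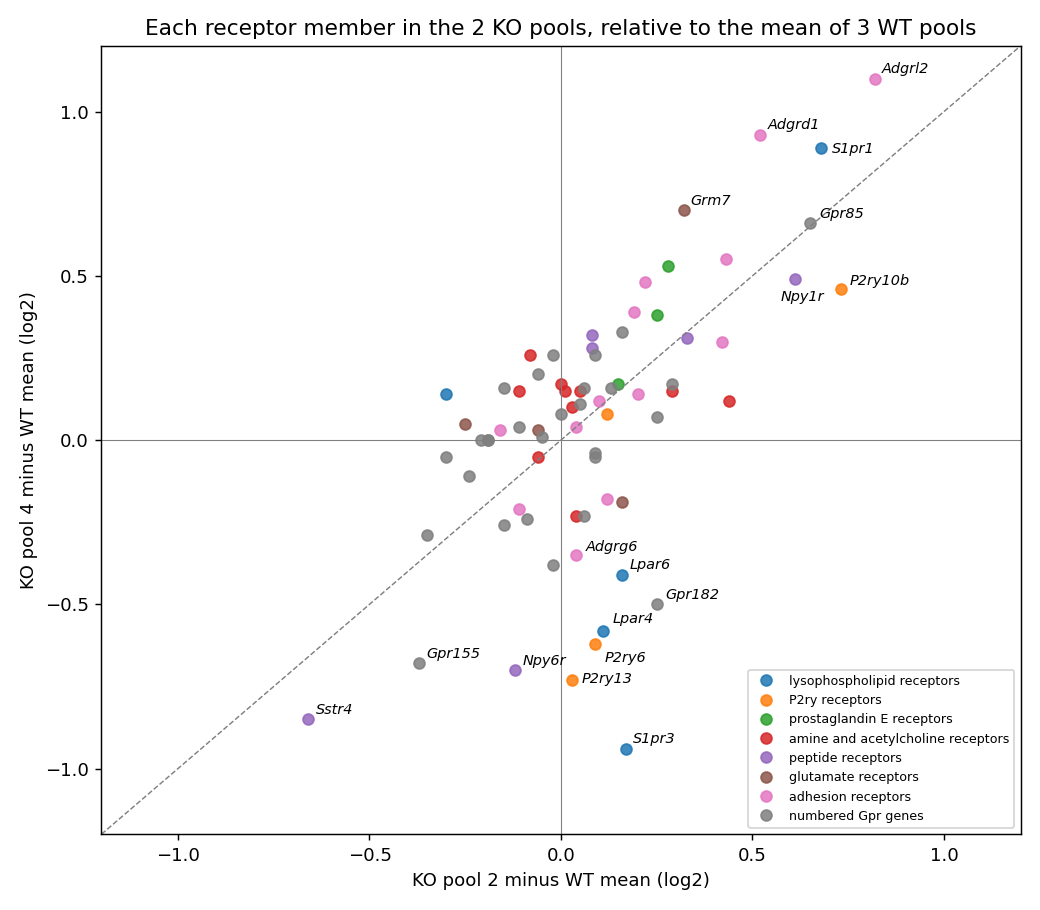
Each of the 73 receptors by its difference from the mean of the 3 WT pools in KO pool 2 (horizontal axis, log2) and KO pool 4 (vertical axis, log2), coloured by family; the dashed line marks equal differences. S1pr3, P2ry13, P2ry6 and Lpar4 lie near 0 on the horizontal axis and below -0.5 on the vertical axis, while Sstr4 and S1pr1 lie away from 0 on both.

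The WT pools also differed in a way that touched the receptors. WT pools 9 and 11 were both below the other 3 arrays in 19 receptors (26.0%; 23.2% over the table). Of the 10 receptors higher in KO at unadjusted p below 0.05 this held for 9 (90.0%), and of the 740 such probe sets in the table for 663 (89.6%). These are the pools with more skeletal muscle and keratinocyte RNA by the marker lists above. The part of that RNA in the receptor differences was not tested, and the values against WT pool 1 alone show how much of each difference remained without these pools.

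**Figure D4:**
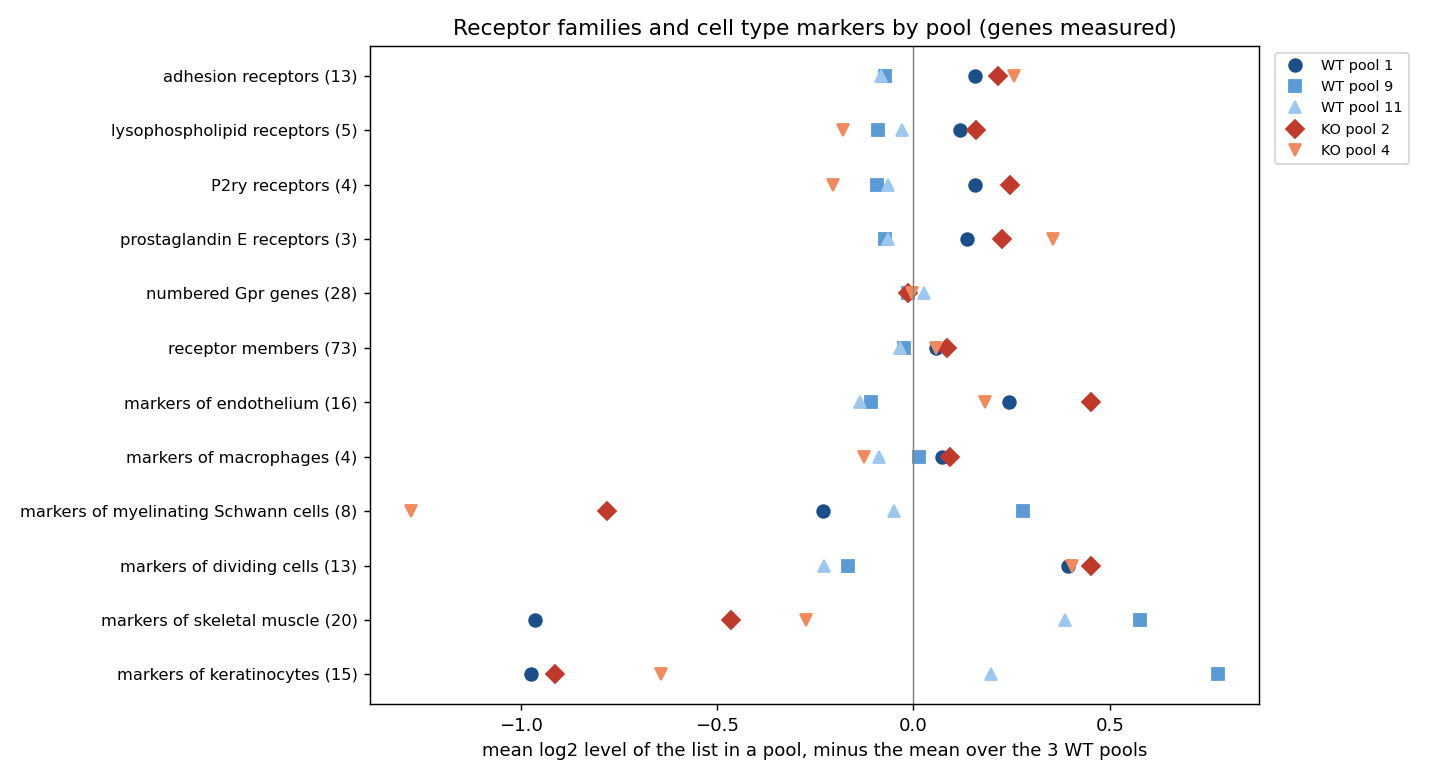
Mean log2 level of 5 receptor families, all 73 receptors and 6 marker lists in each pool, relative to the mean of the 3 WT pools (horizontal axis); the number of genes measured is in brackets. Adhesion receptors, markers of endothelium and markers of dividing cells are lowest in WT pools 9 and 11, where muscle and keratinocyte markers are highest, while markers of myelinating Schwann cells are lowest in both KO pools.

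Genes that carry receptor signals were followed in lists. No member of the 13 lists with measured genes, those of G proteins, their effectors and regulators, ligands and other receptors, passed adjusted p below 0.05, where 0.676% of all probe sets did, so 0 calls among 153 measured genes is near the background. At unadjusted p below 0.05 limma gave 14 higher and 4 lower (11.8%; 14.3% over the table). Of 16 G protein alpha subunits 5 were measured. All 5 were higher in KO (49.8% over the table), up to Gna14 of the Gq class (0.37, SE 0.18). Their median was 0.14, and 1 lay above the WT range in both KO pools (20%, against 17.5% over the table). Of 6 measured adenylyl cyclases, which make cyclic AMP, 5 were higher, with Adcy3 at 0.36 (SE 0.17, unadjusted p = 0.0455), and 4 lay above the WT range in both KO pools (17.5% over the table). The 10 phosphodiesterases, which remove cyclic AMP, held the largest difference of these lists, Pde7b at -0.79 (SE 0.21, adjusted p = 0.0726). Pde7b read 11.60, 11.90 and 11.54 in WT and 11.28 and 10.49 in KO. Pde3a lay the other way at 0.63 (SE 0.20, adjusted p = 0.136).

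Regulators that end the signal were measured in part. The list of regulators of G protein signalling held 10 measured genes, among them Rgs7bp, which encodes a binding protein of such a regulator. They lay between -0.26 (Rgs18) and 0.35 (Rgs7bp). In 5 of them both KO pools were above the WT range (50%; 17.5% over the table). At unadjusted p below 0.05 there were 0 of them (14.3% over the table). Of 9 receptor kinases and arrestin-type genes 6 were lower, Arrb2 at -0.31 (SE 0.18), while Arrdc4, an arrestin domain gene, was at 0.74 (SE 0.20, adjusted p = 0.0805). The list of protein kinase A and its anchors also held the inhibitor gene Pkia and the transcription genes Creb1, Crem, Crtc1, Crtc2 and Crtc3. Of its 14 measured genes 8 were higher, with Akap12 at 0.36 (SE 0.17). Among accessory proteins 4 of 6 were higher, with Rtp4 at 0.47 (9.19 in KO pool 2 and 7.59 in KO pool 4). The phospholipase C beta genes Plcb3 and Plcb4 were at 0.20 and 0.09. The beta and gamma subunits Gnb4 and Gng2 were at -0.12 and -0.35.

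Ligand genes and the enzymes that make or remove ligands gave no call either. Of 13 measured ligand genes 10 were higher, with Edn1, an endothelin of vessels, at 0.52 (SE 0.23) and Edn3 at 0.44 (SE 0.17). Sphk1, which makes sphingosine 1-phosphate, was at 0.17 (SE 0.17), and Spns2, which exports it, at 0.02 (SE 0.18), beside the rise of S1pr1. For prostaglandin E, the synthase gene Ptges2 was at -0.57 (SE 0.18, adjusted p = 0.136) and Hpgd, which degrades prostaglandins, at 0.37 (SE 0.17). Of 8 measured amine enzymes 4 were higher and 4 lower, with Ache at -0.31. The list of receptors outside the symbol rule held 53 measured genes, among them Ptgfrn, whose product regulates a prostaglandin receptor and is not one. Of these genes 32 were higher and 21 lower (median 0.07). The vasopressin receptor Avpr1a led the higher side at 0.77 (SE 0.21, adjusted p = 0.0810). On the lower side the leukotriene receptor Cysltr1 led at -0.57 (SE 0.22, adjusted p = 0.234) and was low in KO pool 4 alone. Avpr1a read 9.01, 8.28 and 8.21 in WT and 9.28 and 9.27 in KO, again with WT pools 9 and 11 lowest.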

How the data were processed

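Total RNA of 5 pools of mouse sciatic nerve (3 WT, 2 KO) was hybridised to Affymetrix whole-transcript arrays, 1 per pool. The deposited values are on a log2 scale; the submitters' processing notes name RMA, while its version, settings and any filter are not stated there. In all 10361 probe sets the fourth-ranked value exceeded the lowest by at least 0.175, a lower bound on spread that a filter would leave, so receptors with little spread are not analysed here and shares called apply to this table only. Array medians were 8.93 to 9.11. In 23 of the 73 receptors some arrays held exactly equal values, so a small spread within a group may not reflect precise measurement. Gene symbols came from GEO's platform annotation (9411 with 1 symbol, 384 with several, 566 not listed), and all 73 receptor symbols matched RefSeq by gene identifier.

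The log2 values, not renormalised, went into limma 3.58.1 under R 4.3.3 (lmFit, eBayes, default prior; 3 residual and 17.4 prior degrees of freedom), two-sided, with Benjamini-Hochberg adjustment over all 10361 probe sets and calls at 0.05. The fit was tested on simulated data. P-values rest only on the variation among these 5 arrays, which may be technical, and the number of arrays limits the precision. Members and gene lists were chosen with earlier results of these data known, so lists are given by counts and medians with no test. Named receptors are those called, those at unadjusted p below 0.05, the 8 largest differences each way, the 6 highest and 3 lowest levels, and receptors with a known role in nerve; other receptors and pathway genes were named after their values were seen, and of each pathway list at least the largest difference is given. The 14 alternatives were other normalisations, level filters and variance models, array weights, and leaving out pools.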

Additional observations from a re-analysis of the deposited data

How the results depend on the processing

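Neither receptor call was stable. Where the fit above called 70 probe sets (36 higher, 34 lower) and 2 receptors, median centring and quantile normalisation called 1 probe set each, lower in KO, and 0 receptors (14 receptors at unadjusted p below 0.05 with either). Without moderation 0 probe sets and 0 receptors were called (498 and 7 at unadjusted p). Leaving out 1 pool gave 0 to 105 probe sets and 0 receptors (4 to 17 receptors at unadjusted p). Against WT pool 1 alone, a single array assumed to vary like the KO pools, 0 and 0 were called (127 and 2 at unadjusted p). Other variance models called more: 158 probe sets with a trend, 148 with a robust prior, both with 3 receptors (Adgrd1 added), and 268 with array weights, with 4 receptors (S1pr1, Adgrl2, Adgrd1 and P2ry10b, but not Sstr4, adjusted p = 0.0504). Probe sets above the 50th percentile of level gave 287 calls and 3 receptors. Under median centring, quantile normalisation and no moderation S1pr1 was at 0.85, 0.80 and 0.79 (adjusted p = 0.364, 0.355 and 0.560) and Sstr4 at -0.69, -0.71 and -0.75 (0.364, 0.310 and 0.560). Both kept their direction in all 14 alternatives. The cause of these shifts was not tested. Settings that left out pools or probe sets also rested on fewer of them.

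The receptor median of 0.04 was 0.10 after median centring and -0.03 above the 50th percentile of level, and 0.01 to 0.10 with 1 pool left out. Family medians that moved by more than the spread between pools, besides those with 1 pool left out, were amine receptors at 0.14 after median centring and 0.20 against WT pool 1 alone, prostaglandin E and adhesion receptors at 0.19 and 0.04 against WT pool 1 alone, peptide receptors at -0.10 above the 25th percentile (Sstr4 and Npy1r only) and -0.75 above the 50th (Sstr4 only), glutamate receptors at 0.05, 0.04 and 0.08 under median centring, quantile normalisation and WT pool 1 alone, and numbered Gpr genes at 0.05, 0.03, -0.04, -0.13 and -0.06 under median centring, quantile normalisation, both level filters and array weights. No paired analysis was possible because the labels do not say which WT and KO pools, if any, belong together.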
